A study of Rattus norvegicus with 12 samples.

Results

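The insulin and insulin-like growth factor (IGF) axis was described here by 10 genes: the ligand genes Igf1 and Igf2, the receptor genes Insr, Igf1r and Igf2r, the receptor substrate genes Irs1 and Irs2, and the binding protein genes Igfbp3, Igfbp4 and Igfbp5. Every row carrying 1 of these gene names was taken, which gave 15 transcripts of the 18752 in the tables and 10 genes of 17301. The study transduced adult rat ventricular myocytes (ARVMs), the contractile cells of the lower heart chambers, isolated from Sprague Dawley rats and kept in primary culture. The Ad-h-NR4A2 group received an adenovirus carrying the full-length human NR4A2 cDNA behind the CMV promoter, and the Ad-GFP group received an eGFP adenovirus. Both viruses were given at a multiplicity of infection of 50 and RNA was taken 48 h later, with 6 samples per group from experiments on different rats. All 12 cultures stood in a medium with an insulin-transferrin-selenium supplement, after a first hour in serum, so insulin was present in both groups throughout. NR4A2 is a nuclear receptor that acts as a transcription factor without needing a known hormone.

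Insulin and IGF1 bind the tyrosine kinase receptors encoded by Insr and Igf1r, which phosphorylate the docking proteins IRS1 and IRS2 and thereby switch on PI3-kinase, Akt and mTORC1. In heart muscle this route drives glucose uptake, protein synthesis and physiological growth, and it holds the FoxO transcription factors, which favour protein breakdown, out of the nucleus. The receptor encoded by Igf2r stands apart: it takes up IGF2 for degradation and carries lysosomal enzymes tagged with mannose 6-phosphate, and it has no kinase. IGF binding proteins hold IGFs outside the cell and are made in large part by cells other than myocytes.

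Levels were read as FPKM, in which the fragments of a transcript are divided by its length and by the depth of the library, so that genes could be set side by side. A difference was called when the limma adjusted p was below 0.05 and the ratio of the mean FPKM was at least 1.5 in either direction. The spacing of low values implied 18800000 to 28000000 fragments per Ad-GFP library and 21600000 to 27300000 per Ad-h-NR4A2 library. The rat Nr4a2 row, which also took up reads of the human transgene as far as they aligned, stood at 0.884 ± 0.309 FPKM (SD, n = 6) under Ad-GFP and 524 ± 70.3 (n = 6) under Ad-h-NR4A2, so every library matched its label.

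Of the 10 genes, 3 fell under Ad-h-NR4A2 and none rose: Igf2r, Igfbp4 and Igfbp5. The same rule called 15.2% of the 10950 genes tested, 7.94% higher and 7.24% lower under Ad-h-NR4A2. By the adjusted p alone, again 3 of the 10 genes passed, all lower, beside 40.9% of all genes (19.3% higher and 21.7% lower). With 10 genes, neither count was tested against these shares, and by the adjusted p alone the axis did not pass more often than the genes at large. The median log2 fold change was -0.09 over the 10 genes and -0.02 over all genes tested. For Igf2r the groups did not overlap, which held for 21.5% of all genes tested. The genes of the signalling receptors and their substrates, Insr, Igf1r, Irs1 and Irs2, all missed the call.

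The start-site sequences of the 3 genes that fell are shown because a transcription factor was introduced. They run from 250 bases before to 50 after the start annotated by RefSeq in the GRCr8 assembly, 5′ to 3′ on the gene's strand. Of the 10 genes, 9 had an entry, with Igf2 holding 2, so that there were 10 windows in all, and Irs2 had none. Capitals mark the motif matches described after the sequences. Igf2r lies at chr1:50526628-50526927 on the plus strand, Igfbp4 at chr10:84491221-84491520 on the plus strand, and Igfbp5 at chr9:81914138-81914437 on the minus strand.
Igf2r: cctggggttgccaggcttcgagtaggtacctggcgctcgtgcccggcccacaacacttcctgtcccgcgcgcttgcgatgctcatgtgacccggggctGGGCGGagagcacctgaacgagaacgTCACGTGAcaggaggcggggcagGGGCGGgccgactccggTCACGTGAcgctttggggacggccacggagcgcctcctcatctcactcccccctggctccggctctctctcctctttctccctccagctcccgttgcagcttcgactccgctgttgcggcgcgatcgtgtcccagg
Igfbp4: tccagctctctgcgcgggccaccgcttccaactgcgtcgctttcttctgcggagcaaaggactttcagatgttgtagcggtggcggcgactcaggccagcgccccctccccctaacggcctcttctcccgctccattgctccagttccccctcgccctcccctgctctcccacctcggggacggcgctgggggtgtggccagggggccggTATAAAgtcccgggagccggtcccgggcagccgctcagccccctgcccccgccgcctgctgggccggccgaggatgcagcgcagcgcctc
Igfbp5: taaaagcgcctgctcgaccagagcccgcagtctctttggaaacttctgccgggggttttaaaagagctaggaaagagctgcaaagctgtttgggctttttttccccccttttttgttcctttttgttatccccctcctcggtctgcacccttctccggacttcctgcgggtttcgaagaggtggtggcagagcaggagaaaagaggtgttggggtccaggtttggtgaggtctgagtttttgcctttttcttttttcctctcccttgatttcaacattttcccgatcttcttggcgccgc

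Motifs were searched on both strands of 33469 RefSeq windows of the same length. The response element that NR4A receptors bind as monomers, AAAGGTCA, occurred in none of the 10 windows and in 1.43% of all windows. Its core AGGTCA occurred in the Igf1 window alone, on the opposite strand at position -4, and in 16.2% of all windows. The Igf2r window held TCACGTGA at positions -126 and -86, counted from the start site, and 0.777% of all windows held at least 1 copy. These 8 letters contain the E-box CACGTG, which 6.42% of windows held and which also stood in the Igf1r window. Igf2r further carried the GC box GGGCGG at positions -152 and -103, a motif of 33.1% of windows, and the Igfbp4 window had a TATA box, TATAAA, at position -40, as did 14.2% of windows somewhere along their length. The Igfbp5 window matched none of the 6 motifs, and its GC content of 50.7% was lower than the 68.0% of Igf2r and the 71.0% of Igfbp4, with a median of 51.7% over all windows. The E-box motifs were added after the Igf2r sequence had been looked at. A match describes letters in this window and not occupancy by a factor.

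Transcripts of the ligands were near the lower end of what these libraries could measure. The 4 Igf1 transcripts summed to 0.142 ± 0.0582 FPKM (SD, n = 6) under Ad-GFP and 0.190 ± 0.124 (n = 6) under Ad-h-NR4A2, and the 3 Igf2 transcripts to 0.169 ± 0.0424 and 0.146 ± 0.0750. Both groups overlapped for both genes, with limma adjusted p values of 0.675 and 0.544 for the summed transcripts. The 95% intervals of the log2 fold change, -0.45 to 0.79 for Igf1 and -0.61 to 0.27 for Igf2, leave room for changes in either direction. How the authors' estimates divided Igf1 among its transcripts was unstable from library to library: the transcript with the highest mean ranged from 1.61e-31 to 0.220 FPKM within the Ad-GFP group. Among the other ligand and receptor genes of a fixed list, Ins1 and Ins2, the insulin genes, were listed at 0 in all 12 libraries and Insrr, an orphan relative of the insulin receptor gene, was near 0.

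Igf2r was by far the most abundant transcript of the axis and the 1 that fell with no overlap between groups. In the Ad-GFP samples it ranged from 76.3 to 89.9 FPKM with a median of 80.4. In the Ad-h-NR4A2 samples it ranged from 39.6 to 60.5 with a median of 46.7, so each sample lay under every Ad-GFP sample. The mean fell from 82.1 ± 5.60 to 48.0 ± 7.87 FPKM (SD, n = 6 per group), a ratio of 0.585. The limma log2 fold change was -0.79 (SE 0.09, 95% interval -0.99 to -0.59, adjusted p 1.63e-05), and the two-sided exact permutation p of 0.00216 is the smallest that 924 arrangements of the samples can give. Between samples with the same number, which were taken as pairs because they deviated together from their group means, the ratio was 0.519 to 0.673. Counting noise is small for this gene, with an implied 7983 to 19361 fragments per library. The locus lies on chromosome 1 from 51488767 to 51577141 of the Rn5 build, with a single annotated transcript of 8789 bases. In bulk RNA, fewer cells of a kind and less transcript per cell cannot be told apart.

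**Figure D1:**
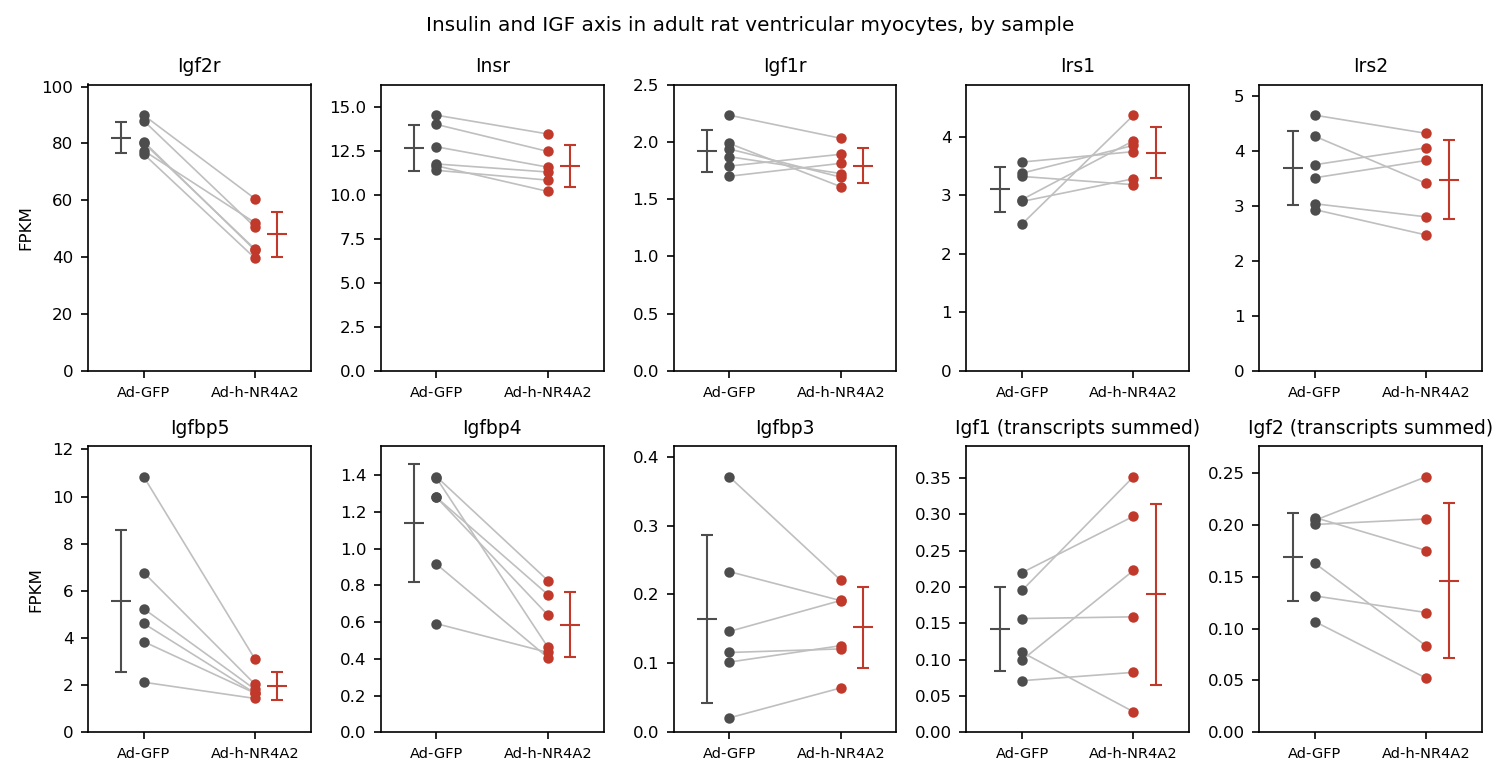
FPKM of the 10 genes in each of the 12 samples, each panel with its own linear axis from 0. Points are samples, grey lines join the Ad-GFP and Ad-h-NR4A2 samples with the same number, and bars beside them give the mean and SD (n = 6). Igf2r separates completely, at 76.3 to 89.9 against 39.6 to 60.5 FPKM, and Igfbp5 and Igfbp4 fall in all 6 pairs.

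Insr was next in abundance. It ranged from 11.4 to 14.5 FPKM with a median of 12.2 under Ad-GFP and from 10.2 to 13.4 with a median of 11.4 under Ad-h-NR4A2, so the groups overlapped widely. The mean was 12.7 ± 1.32 and 11.6 ± 1.17 FPKM (SD, n = 6 per group), with a limma log2 fold change of -0.12 (SE 0.08, adjusted p 0.259). Within each of the 6 pairs, however, the Ad-h-NR4A2 value was the lower, with log2 differences from -0.19 to -0.06. With the sample number as a block the adjusted p was 0.0183 for the same fold change, a ratio of 0.918, inside the limit of 1.5. Igf1r, at 1.92 ± 0.185 and 1.79 ± 0.152 FPKM, was lower in 4 of 6 pairs (log2 fold change -0.09, adjusted p 0.451). The Igf1r to Insr ratio was 0.153 ± 0.0228 and 0.156 ± 0.0259 (two-sided exact permutation p = 0.838, the same after adjustment over the 2 ratios tested). In both groups Insr thus exceeded Igf1r in every sample, and transcripts of the IGF1 receptor made up the smaller share of the pair of kinases.

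The substrate genes Irs1 and Irs2 pointed in different directions without either passing. Irs1 ranged from 2.51 to 3.57 FPKM with a median of 3.12 under Ad-GFP and from 3.18 to 4.37 with a median of 3.80 under Ad-h-NR4A2. It was higher in 5 of 6 pairs, and the log2 fold change of 0.26 (SE 0.10, 95% interval 0.03 to 0.48) had an adjusted p of 0.0629. The limma adjusted p of Irs1 moved both ways. It was 0.0432 without Ad-GFP sample 25, 0.0416 without Ad-h-NR4A2 sample 29 and 0.0393 after quantile normalization. Without Ad-GFP sample 24 it was 0.130, and without Ad-h-NR4A2 sample 24 it was 0.122. Irs2 stood at 3.70 ± 0.677 and 3.49 ± 0.728 FPKM (log2 fold change -0.09, adjusted p 0.673). The Irs2 to Irs1 ratio was 1.22 ± 0.295 under Ad-GFP and 0.936 ± 0.162 under Ad-h-NR4A2. It was lower in all 6 pairs, yet the two-sided exact permutation p of 0.0844 was 0.169 after adjustment over the 2 ratios. With the pairs kept, an exact sign-flip permutation gave p = 0.03125, the smallest that 6 pairs allow, and 0.0625 after the same adjustment. With 1 sample left out, the adjusted p of the unpaired permutation test of that ratio ran from 0.0476 to 0.338. The lowest came without Ad-GFP sample 25, the Ad-GFP sample with the highest Irs1 and the lowest Irs2.

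Igfbp5, whose protein is secreted and binds IGFs and matrix, showed the largest fall among the 10 genes. Under Ad-GFP it ranged from 2.13 to 10.8 FPKM with a median of 4.93, a wide spread, and under Ad-h-NR4A2 from 1.44 to 3.10 with a median of 1.74. Of the 6 Ad-h-NR4A2 samples, 5 lay below every Ad-GFP sample; sample 24 was the exception, and its Ad-GFP partner was the highest of all. The mean fell from 5.58 ± 3.00 to 1.95 ± 0.595 FPKM (SD, n = 6 per group), with a log2 fold change of -1.34 (SE 0.31, 95% interval -2.01 to -0.68, limma adjusted p 0.00340) and a two-sided exact permutation p of 0.00433. The ratio within pairs was 0.286 to 0.676. The gene lies on chromosome 9 from 79924622 to 79937205 (Rn5), with a transcript of 1627 bases, and the values rest on an implied 46 to 350 fragments per library.

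Igfbp4, another secreted IGF binding protein, also fell in every pair, from a lower level. It ranged from 0.592 to 1.39 FPKM with a median of 1.28 under Ad-GFP and from 0.407 to 0.826 with a median of 0.551 under Ad-h-NR4A2, so the groups overlapped in part. The mean fell from 1.14 ± 0.320 to 0.586 ± 0.177 FPKM (SD, n = 6 per group), with a log2 fold change of -0.84 (SE 0.22, 95% interval -1.31 to -0.37, limma adjusted p 0.00703) and a two-sided exact permutation p of 0.0108. These levels rest on 19 to 78 implied fragments per library, and the size on the log scale depended on the pseudocount, being -0.42 with 1 FPKM added in place of 0.1. The locus is on chromosome 10 from 86747476 to 86759484 (Rn5), with a transcript of 2163 bases. Igfbp3, the main IGF carrier of blood plasma, was barely detected, at 1 to 15 implied fragments per library: 0.165 ± 0.122 FPKM under Ad-GFP and 0.152 ± 0.0585 under Ad-h-NR4A2 (adjusted p 0.960). Its direction changed with the pseudocount.

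**Figure D2:**
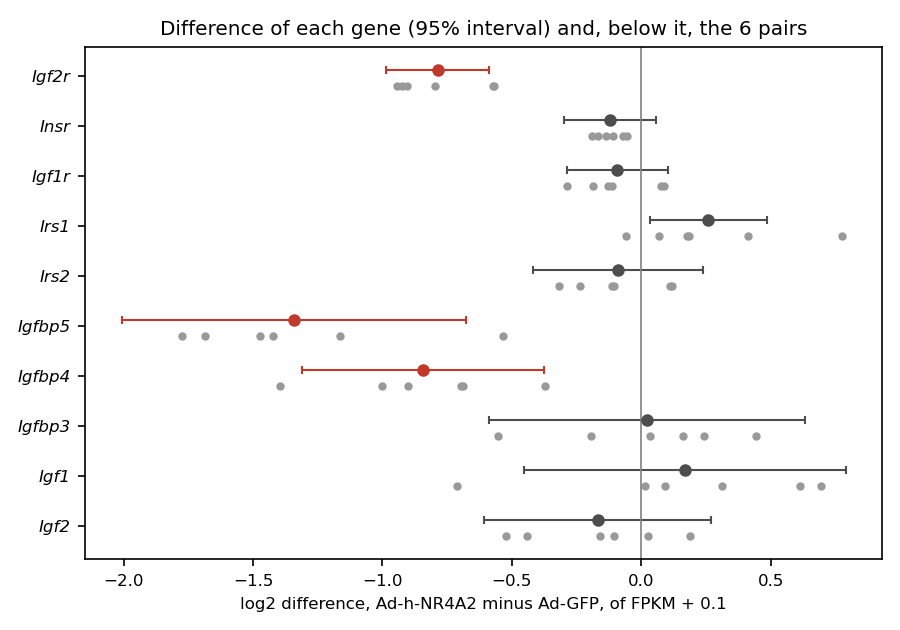
The log2 difference of FPKM + 0.1, Ad-h-NR4A2 minus Ad-GFP, for the 10 genes. Large points with bars are the limma estimate and its 95% interval, red where called, small grey points are the 6 pairs, and Igf1 and Igf2 are sums of transcripts. The intervals of Igf2r, Igfbp5 and Igfbp4 lie wholly below 0, and that of Irs1 (0.03 to 0.48) just above it.

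By level, the axis kept its top and changed in the middle. Under Ad-GFP the order was Igf2r, Insr, Igfbp5, Irs2, Irs1, Igf1r, Igfbp4 and then Igf2, Igfbp3 and Igf1. The ranges of Igfbp5, Irs2 and Irs1 overlapped with each other, as did those of the last 3 genes. That of Igfbp5, from 2.13 FPKM, also reached into that of Igf1r, up to 2.23. Under Ad-h-NR4A2 Igfbp5 came after Irs1 and Irs2 and before Igf1r, and among these genes only the ranges of neighbours overlapped. The ranges of Igf1, Igfbp3 and Igf2 again overlapped with each other. In each group Igf2r and Insr lay above all other genes of the axis in every sample.

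Because binding proteins are products of non-myocytes as well, markers of the cell types that a ventricular preparation can hold were read in the same libraries. Over all genes tested 15.2% were called, 7.94% higher and 7.24% lower, and the marker counts were not tested against these shares. Cardiomyocyte markers summed to 36005 to 44307 FPKM under Ad-GFP and 32532 to 38361 under Ad-h-NR4A2. All 10 were tested, with Myh7, Ryr2 and Pln called lower and none called higher, and by the adjusted p alone 6 were lower and none higher. Fibroblast markers summed to only 10.1 to 32.6 and 6.39 to 29.04 FPKM, lower in 5 of 6 pairs. Of the 9 tested, 1 was called, the collagen gene Col3a1, which was lower, and Col1a2 was listed at 0 in all libraries. Smooth muscle and pericyte markers summed to 11.7 to 24.3 and 8.78 to 21.0 FPKM (1 of 5 tested called, Myh11, lower), and endothelial markers to 9.30 to 26.7 and 10.5 to 28.3 (1 of 8 tested called, Egfl7, higher). Macrophage markers summed to 7.04 to 18.1 and 39.2 to 50.6 FPKM, with 2 of 5 tested called, Csf1r and Cd14, both higher. Most of that sum was Csf1r, at 10.1 ± 3.87 and 40.2 ± 2.35 FPKM, and the median log2 fold change of the list was 0.05. Cd68 (0.05), Adgre1 (-0.17) and Lyz2 (-0.66) were not called, and the leukocyte gene Ptprc stayed at or below 0.0489 and the macrophage gene Cd163 at or below 0.0541 FPKM in every library.

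The fibroblast sum, of which Vim was the largest part, was set beside the binding proteins pair by pair. Its median log2 difference within pairs was -0.50, against -0.80 for Igfbp4 and -1.45 for Igfbp5. In pair 27 the fibroblast sum was higher under Ad-h-NR4A2 (log2 difference 0.38), as was the smooth muscle and pericyte sum (0.24), and Igfbp4 and Igfbp5 differed by -0.37 and -0.53, the smallest differences among the 6 pairs. In the other pairs the order was shared only in part. In pair 28 the fibroblast sum differed by -0.65 and the smooth muscle and pericyte sum by -0.56, the lowest value of the latter. Igfbp4 and Igfbp5 differed there by -1.003 and -1.69, larger falls than in any pair but 24. Pairs 29 and 25 did not follow that order. The fibroblast sum was lowest against its partner in pair 29 (-0.69), where Igfbp4 and Igfbp5 differed by -0.69 and -1.16, and it differed by -0.17 in pair 25, where Igfbp5 differed by -1.48. The cardiomyocyte sum was lower in all 6 pairs, with a median difference of -0.21, against -0.85 for Igf2r. Its largest parts were Myl2, Tnni3 and Tnnt2, with limma log2 fold changes of -0.20, -0.22 and -0.26. Single cardiomyocyte markers ranged from -0.86 for Myh7, -0.72 for Pln, -0.68 for Ryr2 and -0.56 for Myh6 to 0.06 for Atp2a2. That of Igf2r was -0.79. The part of these cell types in the 3 falls was not tested.

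**Figure D3:**
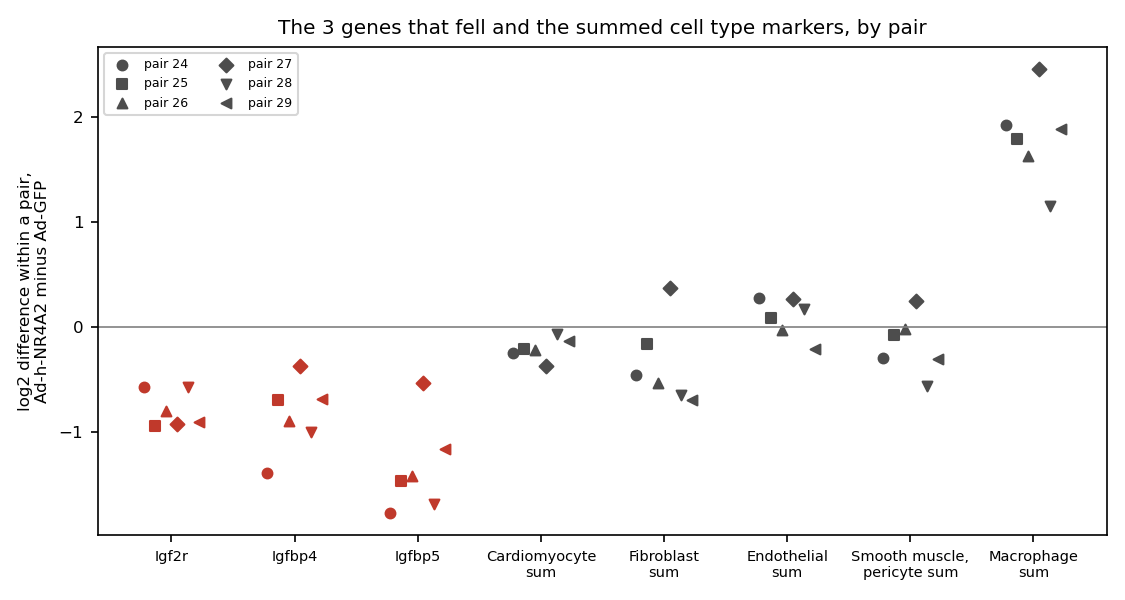
Log2 differences within the 6 same-numbered pairs, Ad-h-NR4A2 minus Ad-GFP, for Igf2r, Igfbp4 and Igfbp5 (red) and for the summed FPKM of 5 marker lists (grey). Symbols mark the pair. The 3 genes lie below 0 in every pair, the fibroblast sum in all pairs but 27, and the macrophage sum, which is mostly Csf1r, above 0 in every pair.

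The gene whose 6 pair differences lay closest to those of Igf2r was Trim63, a ubiquitin ligase that tags muscle proteins for breakdown (root mean square distance 0.05 on the log2 scale). It was followed by Rps6ka5, a nuclear kinase that phosphorylates histone H3, at 0.06, and by Raph1, a regulator of the actin cytoskeleton, at 0.07. These were the closest of all genes tested over 6 pairs, and Trim63 stood at 93.0 ± 8.64 FPKM under Ad-GFP and 53.9 ± 9.49 under Ad-h-NR4A2 (n = 6 per group), levels near those of Igf2r itself.

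Around the axis, 76 further pathway genes were listed by role, 70 had rows and 63 were tested. Of the 63, 12 were called, or 19.0%, with 6 higher and 6 lower, and the median log2 fold change was -0.04. By the adjusted p alone 31 passed, 12 higher and 19 lower. Over all 10950 genes tested, 15.2% were called and 40.9% passed the adjusted p alone. The same shares stand beside the counts of each list below. Of 7 other binding proteins and proteases tested, only Stc2 was called. Igfbp2, another secreted IGF binding protein, was left out by the filter because 1 Ad-GFP library listed it at 0. It ranged from 0 to 0.243 FPKM with a median of 0.198 under Ad-GFP and from 0.122 to 0.711 with a median of 0.575 under Ad-h-NR4A2, higher in 6 of 6 pairs, opposite to Igfbp4 and Igfbp5 (two-sided exact permutation p 0.0130). With no filter on low values its log2 fold change was 1.11 (adjusted p 0.0287), and 13 pathway genes were called in place of 12. Igfbp2 was named after its value had been seen. Stc2, an inhibitor of the protease that frees IGFs by cutting IGFBP4, rose from 8.14 ± 1.41 to 13.7 ± 1.48 FPKM (log2 fold change 0.75, adjusted p 1.26e-04). That protease's gene, Pappa, was close to 0 in both groups, with means of 0.00469 and 0.00448 FPKM.

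Among 18 adaptors and receptor-level brakes, 11 passed the adjusted p, 3 higher and 8 lower, and 4 were called, with a median log2 fold change of -0.19. Grb14, which binds the active insulin receptor and blocks its kinase, was the most abundant of these 4 and fell from 91.6 ± 7.61 to 59.9 ± 3.66 FPKM with no overlap (log2 fold change -0.61, adjusted p 2.30e-06). Enpp1, a membrane glycoprotein reported to restrain the insulin receptor, fell by 0.84 on the log2 scale (adjusted p 0.00110). Socs1, a feedback inhibitor of cytokine signalling that also targets IRS proteins, fell by 0.75 (adjusted p 0.00668) from 0.586 FPKM. Dok1, a docking protein that dampens tyrosine kinase signalling, rose by 0.88 (adjusted p 2.99e-04) from 0.456 FPKM. So 3 of the 4 brakes called were lower and 1 was higher. Inside the fold limit, the related genes Socs2 (log2 fold change 0.51, adjusted p 0.00302) and Grb10 (-0.20, adjusted p 0.00404) passed the adjusted p in opposite directions. Both were named after their values had been seen.

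The PI3-kinase and Akt group had 18 genes tested, with 3 higher and 7 lower by the adjusted p and 2 called each way, and a median of -0.09. Pik3r3, a regulatory subunit of PI3-kinase, rose from 5.96 ± 0.601 to 67.1 ± 12.7 FPKM (log2 fold change 3.46, adjusted p 1.21e-10). Pik3ip1, which inhibits the catalytic subunit, fell from 20.9 ± 3.33 to 7.41 ± 1.47 FPKM (log2 fold change -1.49, adjusted p 1.07e-06). Mapkap1, a subunit of the mTORC2 complex that phosphorylates Akt, rose by 0.66 on the log2 scale (adjusted p 1.81e-05). Trib3, a pseudokinase that binds Akt, fell by 0.94 (adjusted p 0.0240), with a wide spread of 24.2 to 59.5 FPKM in the Ad-GFP samples. No gene of the mTORC1 and translation group was called among 13 tested, and its median was -0.08. By the adjusted p alone 2 were higher and 3 lower. Of these, Eif4e, a translation factor, came closest to the fold limit, with a ratio of 1.47. It was at 83.1 ± 4.55 and 122 ± 4.43 FPKM with no overlap (log2 fold change 0.56, adjusted p 3.40e-07), and was named after its value had been seen.

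Of 7 glucose uptake and glycogen genes tested, 3 were called, with a median of 0.01. Hk1 and Hk2, hexokinases that trap glucose in the cell, moved apart. Hk1 fell from 113 ± 10.4 to 53.7 ± 6.60 FPKM (log2 fold change -1.08, adjusted p 4.84e-07). Hk2, the form that insulin is known to induce in muscle, rose from 37.7 ± 5.83 to 67.5 ± 10.7 FPKM (log2 fold change 0.84, adjusted p 7.33e-05), so the higher mean was that of Hk1 under Ad-GFP and of Hk2 under Ad-h-NR4A2. Gys1, muscle glycogen synthase, rose from 48.0 ± 3.47 to 76.4 ± 6.33 FPKM (log2 fold change 0.67, adjusted p 1.97e-06). Slc2a4, the insulin-responsive glucose transporter, passed the adjusted p but not the fold limit, at 92.7 ± 21.7 and 128 ± 25.8 FPKM (log2 fold change 0.48, adjusted p 0.0274), and was named after its value had been seen.

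**Figure D4:**
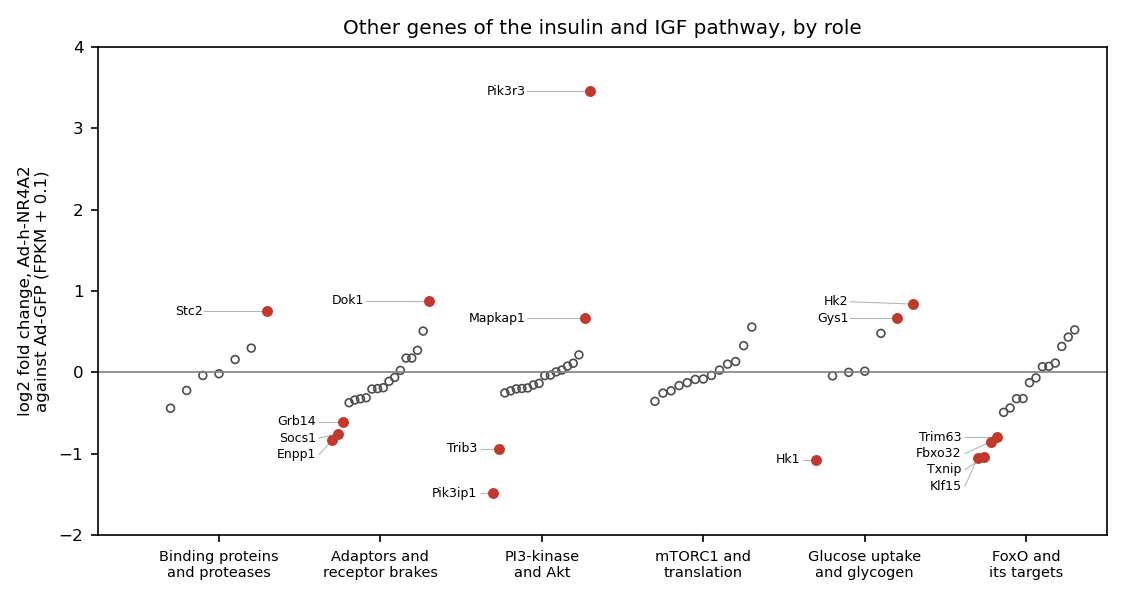
Log2 fold change of FPKM + 0.1, Ad-h-NR4A2 against Ad-GFP, for the tested genes of 6 lists set out by role. Filled red points are called and named, open points are not called, and genes are sorted within a list. Pik3r3 stands highest at 3.46 and Pik3ip1 lowest at -1.49, the mTORC1 list has no called gene, and the called FoxO list genes are all lower.

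FoxO factors and genes known as their targets lie at the end of this pathway. Of 16 tested, 4 were called, or 25%, all lower, and by the adjusted p 3 were higher and 7 lower, with a median of -0.22. The shares over all genes were 15.2% called and 7.24% called lower, and 40.9% by the adjusted p alone. Trim63 (log2 fold change -0.80, adjusted p 3.03e-05) and Fbxo32 (-0.85, adjusted p 4.71e-04), which encode ubiquitin ligases of muscle atrophy, fell with no overlap between groups. Klf15, a transcription factor of fasting metabolism, fell from 23.4 ± 2.92 to 11.4 ± 2.53 FPKM (log2 fold change -1.05, adjusted p 2.64e-05). Txnip, which encodes a protein that lowers glucose uptake, fell from 118 ± 54.9 to 54.6 ± 13.6 FPKM (log2 fold change -1.04, adjusted p 0.00675). The genes of the factors themselves, named after their values had been seen, differed among each other, all inside the fold limit. Foxo4, the most abundant of the 3 tested, was at 58.3 ± 3.09 and 55.7 ± 4.69 FPKM (log2 fold change -0.07, adjusted p 0.376). Foxo1 was at 6.17 ± 0.656 and 8.35 ± 0.660 FPKM (log2 fold change 0.43, adjusted p 7.78e-04) and Foxo3 at 10.9 ± 1.45 and 13.7 ± 1.86 (0.32, adjusted p 0.0247). The third gene higher by the adjusted p was a target, Sesn3, also inside the fold limit and named after its value had been seen. Sesn3 was at 19.0 ± 1.95 and 27.5 ± 3.93 FPKM (log2 fold change 0.52, adjusted p 9.98e-04).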

How the data were processed

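RNA of 12 ARVM cultures was sequenced as stranded, paired-end mRNA libraries in 1 pool. The authors aligned reads to the rat Rn5 build with STAR and estimated FPKM per RefSeq transcript with Cufflinks, and these deposited FPKM values were the start here. For each gene the transcript with the highest mean was kept, except that Igf1 and Igf2 were also summed. Genes above 0 in all 12 samples (10950) were tested on log2(FPKM + 0.1) with limma 3.58.1 (trend, Benjamini-Hochberg adjustment over all genes), so fold changes of low genes are understated. A gene was called at an adjusted p below 0.05 with a 1.5-fold ratio of means. Depth was inferred from the spacing of low values, of which 99.2 to 99.9% were whole fragments within 0.1 of a fragment, and it limits the lowest genes most. Single values and ratios were tested by two-sided exact permutation. The method was tested on simulated data.

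The sample numbers 24 to 29 occur in both groups, and the study describes 6 experiments on different rats. The deviations of same-numbered samples from their group means correlated at 0.347 to 0.623 in the 6 pairs, so the numbers were taken to pair the samples. The unblocked fit was kept, as in the study's own unpaired tests.

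The 10 genes and all lists were chosen with earlier results of these data known. The genes named were the 10 genes, Nr4a2, the 4 called genes with the lowest adjusted p of each pathway and FoxO list, and the 3 genes nearest to the most strongly called gene of the axis over the 6 pairs. Exceptions are stated. Listed genes without a row were not analysed here. Alternatives covered the pseudocount, filter, scaling, transcript choice, variance model, block, fold limit and each sample left out.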

Additional observations from a re-analysis of the deposited data

Results flagged for a closer look

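In the Ad-h-NR4A2 group, sample 24 lay far above the other 5 for Igfbp5, at 3.10 FPKM against 1.44 to 2.04. Its gap to the next sample was 0.640 of the group's whole range, over Dixon's 95% limit for 6 samples. Without that sample the log2 fold change of Igfbp5 was -1.48, and Igf2r, Igfbp4 and Igfbp5 were still the 3 genes of the axis called. The same library was far above the rest for Pik3ip1, at 10.2 FPKM against 6.01 to 7.41, with a gap of 0.668 of the range. These were 2 of 58 groups examined, a rule that chance alone meets in about 1 group in 20.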

How the results depend on the processing

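Igf2r, Igfbp4 and Igfbp5 were the 3 genes called when each of the 12 samples was left out in turn. In those fits the log2 fold change ran from -0.86 to -0.73 for Igf2r, -1.001 to -0.76 for Igfbp4 and -1.58 to -1.12 for Igfbp5, with limma adjusted p values up to 7.42e-05, 0.0181 and 0.00932. With the fold limit at 2 only Igfbp5 of the axis was called, 1 gene, beside 803 genes in all (493 higher and 310 lower), 4 pathway genes and 2 FoxO list genes. With no fold limit the counts were 4484 genes (2113 higher and 2371 lower), 31 pathway genes and 10 FoxO list genes. A minimum mean of 1 FPKM removed Igfbp4, Igfbp3, Igf1 and Igf2 and left 2 called. With the sample number as a block, 1825 genes were called in place of 1662. The block brought Insr under the adjusted p threshold (log2 fold change -0.12, adjusted p 0.0183) and changed no other call among the 10 genes. Counts of called genes without 1 sample were 1541 to 1769.

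Directions turned only among genes and ratios that were not called. The log2 fold change of Igfbp3 was -0.0107 with a pseudocount of 1, -0.0311 after quantile normalization, and between -0.179 and 0.213 without 1 sample. Without 1 sample Igf2 ran from -0.268 to 0.0763, positive without Ad-h-NR4A2 sample 28 or 29, and Irs2 from -0.156 to 5.73e-05, positive without Ad-h-NR4A2 sample 25. Leaving out 1 sample moved the log2 difference of the Igf1r to Insr ratio between -0.0478 and 0.0996, and it was negative without Ad-GFP sample 24 or 28 or Ad-h-NR4A2 sample 29. For the Irs2 to Irs1 ratio that range was -0.465 to -0.264. The cause was not tested. Depth limits Igf1, Igf2 and Igfbp3 most.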

Other observations

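The fall of Igf2r prompted a look at genes of mannose 6-phosphate sorting, lysosomes and IGF turnover, a list drawn up after its value had been seen. Of 12 genes listed, 11 had rows and were tested. Of these 11, 3 were called, all lower, beside 15.2% of all genes tested, and by the adjusted p 1 was higher and 5 lower. Sort1, which encodes sortilin, another receptor that carries proteins to lysosomes, fell from 34.8 ± 2.47 to 18.1 ± 1.75 FPKM (SD, n = 6 per group; log2 fold change -0.94, adjusted p 2.79e-07). Gga2, an adaptor that loads such receptors into vesicles at the Golgi, fell from 65.0 ± 9.06 to 41.0 ± 5.54 FPKM (-0.66, adjusted p 1.28e-04). Its relatives Gga1 (-0.23, adjusted p 0.0492) and Gga3 (-0.04, adjusted p 0.761) stayed within the fold limit. M6pr, the smaller mannose 6-phosphate receptor, was at 31.8 ± 3.50 and 31.3 ± 1.40 FPKM (-0.02, adjusted p 0.860), and Vps35, of the complex that returns receptors to the Golgi, at 68.2 ± 2.67 and 65.3 ± 1.28 (-0.06, adjusted p 0.164). Tfeb, a master regulator of lysosomal genes that binds E-box sequences, passed the adjusted p inside the fold limit (-0.38, adjusted p 7.24e-04). A link between Tfeb and Igf2r was not tested. Igf2bp2, which encodes a protein that binds Igf2 mRNA, fell from 4.53 ± 1.28 to 2.26 ± 0.832 FPKM (-1.01, adjusted p 0.00732), while Ide, the insulin-degrading enzyme, was at 40.7 ± 2.01 and 46.1 ± 3.14 (0.18, adjusted p 0.0130).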
